A study of Mus musculus with 16 samples.

Results

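The neutrophil chemokines and their receptors on the panel were 7 genes read by 8 assays, of 584 genes and 648 assays in all. They were taken by gene name: the chemokines Cxcl1, Cxcl2, Cxcl3, Cxcl5 and Ppbp, the chemokine receptor Il8rb (now Cxcr2) and the formyl peptide receptor Fpr1. Cxcl1 had 2 assays and the other genes 1 each. Total RNA from the colonic mucosa of mice was assayed by real-time PCR, with the OpenArray inflammation panel of TaqMan assays, in 16 samples, 4 in each of 4 groups. In the DNBS_CEC group, mice had dinitrobenzene sulfonic acid (DNBS), a hapten used to cause colitis, by the intrarectal route and an oral treatment labelled CEC, which the labels do not spell out. The DNBS_Nissle group had intrarectal DNBS and oral Nissle, the name of a probiotic strain of Escherichia coli. The DNBS group, labelled as the sick control, had intrarectal DNBS and oral phosphate-buffered saline (PBS), and the healthy group had PBS by both routes. Strain, age and the time between DNBS and sampling are not given in the sources used here. The design text says that equal amounts of RNA from each mouse were pooled, yet each sample has its own number, so a sample may stand for 1 mouse or for several, and the p-values measure only the spread between these samples.

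Neutrophils leave the blood along gradients of small chemokines that carry a glutamate-leucine-arginine (ELR) motif ahead of their CXC cysteines. Cxcl1, Cxcl2, Cxcl3, Cxcl5 and Ppbp belong to this ELR family, and in mice they act through Cxcr2, the receptor that the panel lists as Il8rb. Fpr1 senses formylated peptides, which bacteria and damaged mitochondria release, and guides neutrophils over the last stretch towards such sources. In the inflamed colon the chemokines are known as products of epithelium, stroma and macrophages, whereas both receptors are carried mainly by neutrophils and other myeloid cells.

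The 5 chemokine genes lie in a cluster on mouse chromosome 5, where the RefSeq annotation has them in the order Cxcl5, Ppbp, Cxcl3, Cxcl1 and Cxcl2 with Pf4 and Cxcl15 among them, while Il8rb lies on chromosome 1 and Fpr1 on chromosome 17. The 100 bases before the start of 4 of the chemokine genes are shown because these genes of the cluster are described together below, and a short sequence bound by NF-kB sets some of them apart. They come from RefSeq (GRCm38.p6), lie on the plus strand and read 5′ to 3′, with capitals for the motif GGAATTTCC, the core of an NF-kB site.
Cxcl1, chr5:90891145-90891244: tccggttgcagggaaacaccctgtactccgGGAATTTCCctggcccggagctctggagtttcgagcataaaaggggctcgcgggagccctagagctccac
Cxcl2, chr5:90903799-90903898: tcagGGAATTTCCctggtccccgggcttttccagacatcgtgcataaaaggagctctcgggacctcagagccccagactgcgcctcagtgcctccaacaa
Cxcl3, chr5:90786001-90786100: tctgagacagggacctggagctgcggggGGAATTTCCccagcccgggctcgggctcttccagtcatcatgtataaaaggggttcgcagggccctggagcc
Ppbp, chr5:90768418-90768517: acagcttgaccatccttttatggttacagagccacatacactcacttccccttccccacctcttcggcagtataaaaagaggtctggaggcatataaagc

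The motif was picked after these sequences were seen, and both strands were searched from 250 bases before to 50 bases after each start. Promoters were given for 6 of the 7 genes, all but Cxcl5. Cxcl1, Cxcl2 and Cxcl3 held the motif, with its first base at −70, −96 and −72 from the start. The promoters of Ppbp, Il8rb and Fpr1 did not hold these letters in the window. Of all 32851 promoter windows of this length, 104 (0.317%) held it. A TATA-like ATAAAA, searched in the same way, stood in the windows of Cxcl1, Cxcl2, Cxcl3 and Ppbp and in 18.5% of all windows. These matches describe sequence only and were not set against the measured levels by any test.

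Levels are given as −ΔCt, the mean cycle threshold (Ct) over 11 reference genes less that of the gene in question, on a log2 scale where a higher value means more RNA. A difference of 1 on this scale is a doubling if each cycle doubles the product. A Ct over 28 counted as not detected and was set to 28 in the fits. The samples had between 528 and 564 detected assays, with a median Ct of detected assays from 22.12 to 23.55. The reference genes averaged a Ct of 18.45 ± 0.18 in DNBS_CEC, 18.46 ± 0.36 in DNBS_Nissle, 18.66 ± 0.28 in DNBS and 18.96 ± 0.21 in healthy samples (mean ± SD, n = 4). Of the deposited values, 194 were equal to the average of the remaining 3 samples in the group and were read as filled-in gaps, 57 of them in healthy sample 3 and 61 in DNBS_Nissle sample 1. Krt8, a keratin of simple epithelium chosen after its values were seen, was detected in all 16 samples. Its −ΔCt ran from 2.24 to 3.66 in DNBS_CEC, from 0.37 to 3.43 in DNBS_Nissle, from 2.50 to 3.66 in DNBS and from 2.46 to 3.79 in healthy samples. None of the 7 epithelial markers listed for checking the tissue label was on the panel.

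Across the 7 genes the group means stood in 1 order, highest in DNBS_Nissle, then DNBS, then DNBS_CEC and lowest in healthy mucosa. Averaged over the 7 genes, the level was −5.34 ± 1.4 in DNBS_CEC, −3.11 ± 0.97 in DNBS_Nissle, −4.02 ± 1.92 in DNBS and −6.89 ± 0.63 in healthy samples (mean ± SD, n = 4 each). Cxcl5 and Il8rb rose in DNBS_Nissle against healthy mucosa, and no tested member passed in limma in any of the other 5 comparisons. Both calls were lost without DNBS_Nissle sample 1 or healthy sample 3, 4 or 5. Cxcl2 and Cxcl3 were detected in too few healthy samples to be tested in limma against healthy mucosa. No tested member passed between neighbours in the order, that is between DNBS_Nissle and DNBS, between DNBS_CEC and DNBS, or between DNBS_CEC and healthy samples. All neighbouring groups overlapped in every member except Cxcl5 in DNBS_CEC and healthy samples.

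**Figure D1:**
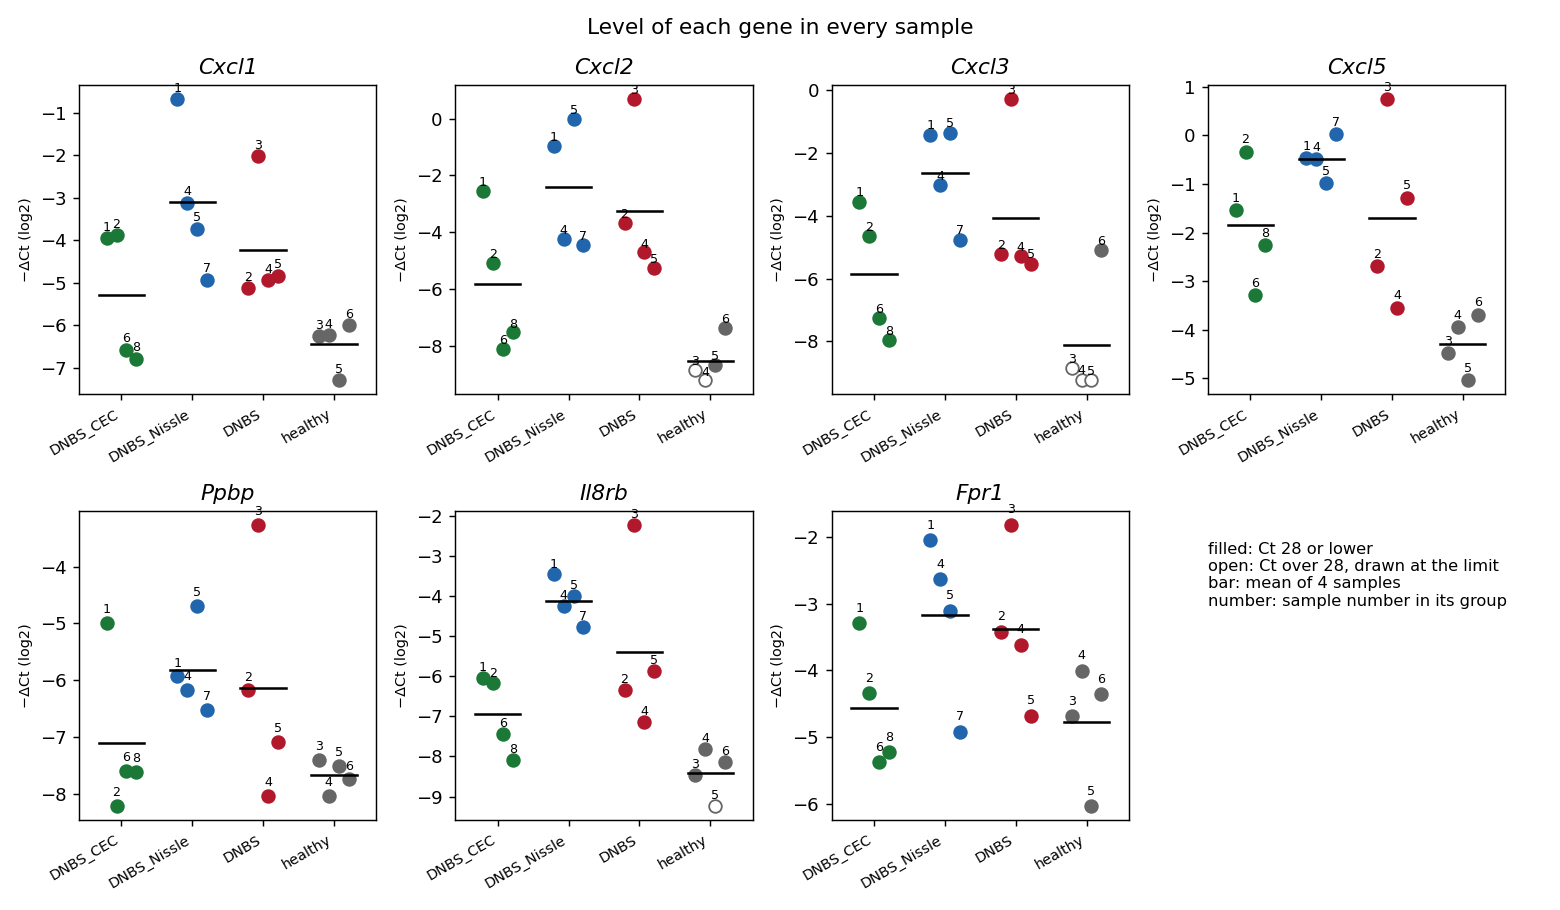
Level of each of the 7 genes in every sample as −ΔCt (log2, vertical axis), by group (horizontal axis), with a bar at the mean of 4 samples, the sample number above each point and open points for a Ct over 28 drawn at the limit. DNBS sample 3 is the highest DNBS sample in all 7 panels, and in Cxcl5 all 4 healthy samples lie below all others, while in the other panels 1 or more DNBS-treated samples lie among or below them.

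Cxcl1, also known as KC, was read at −3.94, −3.88, −6.57 and −6.78 in DNBS_CEC samples 1, 2, 6 and 8, and at −0.67, −3.11, −3.72 and −4.92 in DNBS_Nissle samples 1, 4, 5 and 7. The DNBS samples 2, 3, 4 and 5 were at −5.12, −2.02, −4.93 and −4.83, against −6.26, −6.23, −7.30 and −6.00 in healthy samples 3, 4, 5 and 6. Every DNBS_Nissle and every DNBS sample exceeded every healthy sample, while DNBS_CEC samples 6 and 8 lay among the healthy ones. Cxcl1 was higher than in healthy mucosa by 1.15 ± 0.93 in DNBS_CEC (limma adjusted p = 0.761), by 3.34 ± 0.93 in DNBS_Nissle (0.0941) and by 2.22 ± 0.93 in DNBS (0.390; ± SE, n = 4 each). The DNBS_Nissle difference was 2.53 without DNBS_Nissle sample 1 (limma adjusted p = 0.251) and 3.95 without DNBS_Nissle sample 7, where it passed (0.0416). Without DNBS sample 3 the DNBS difference was 1.49. The value of healthy sample 3 was a filled-in mean. The other Cxcl1 assay gave differences from healthy of 2.01, 4.19 and 2.97 in the same order of groups, and in healthy sample 3 its Ct was 28.29, over the limit.

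Cxcl2, the chemokine MIP-2, had the widest spread of the 7 genes within DNBS-treated groups. It was read at −2.55, −5.08, −8.09 and −7.53 in DNBS_CEC samples 1, 2, 6 and 8, and at −0.96, −4.22, −0.01 and −4.44 in DNBS_Nissle samples 1, 4, 5 and 7. It stood at −3.68, 0.69, −4.71 and −5.25 in DNBS samples 2, 3, 4 and 5. Among healthy samples only samples 5 and 6 were detected, at −8.66 and −7.37, and samples 3 and 4 had Ct values of 29.96 and 28.07. All DNBS_Nissle and DNBS samples exceeded the healthy ones, and DNBS_CEC samples 6 and 8 did not. With the undetected wells at the limit, Cxcl2 was at least 6.55-fold higher than in healthy mucosa in DNBS_CEC, at least 69.3-fold in DNBS_Nissle and at least 39.0-fold in DNBS, provided that those wells did not fail. The bound was 15.7-fold in DNBS without DNBS sample 3 and 3.08-fold in DNBS_CEC without DNBS_CEC sample 1. Detection in 4 of 4 against 2 of 4 samples gave p = 0.429 in the two-sided Fisher's exact test in each comparison. With 4 samples a group this test cannot give less than 0.0286.

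Cxcl3, a close relative of Cxcl1 and Cxcl2, was the member least often detected in healthy mucosa. It was read at −3.55, −4.65, −7.27 and −7.95 in DNBS_CEC samples 1, 2, 6 and 8, and at −1.42, −3.02, −1.36 and −4.76 in DNBS_Nissle samples 1, 4, 5 and 7. The DNBS samples 2, 3, 4 and 5 stood at −5.22, −0.29, −5.30 and −5.52, against −5.09 in healthy sample 6, the only detected healthy sample. Healthy samples 3 and 5 had a Ct of 40, which stands for no amplification, and healthy sample 4 had 30.52. Healthy sample 6 lay above 3 of the 4 DNBS samples and above DNBS_CEC samples 6 and 8, but below every DNBS_Nissle sample. With the undetected wells at the limit, Cxcl3 was at least 4.73-fold higher than in healthy mucosa in DNBS_CEC, at least 43.9-fold in DNBS_Nissle and at least 16.2-fold in DNBS, again provided that those wells did not fail. The bound was 6.73-fold in DNBS without DNBS sample 3, 2.78-fold in DNBS_CEC without DNBS_CEC sample 1, and 32.4-fold in DNBS, 87.9-fold in DNBS_Nissle and 9.48-fold in DNBS_CEC without healthy sample 6. With undetected values left out, healthy sample 6 alone stands for the healthy group, and the DNBS_CEC difference turned to −0.76 on the log2 scale. Detection in 4 of 4 against 1 of 4 samples gave p = 0.143 in Fisher's exact test, 0.286 after adjustment over the 6 such tests on Cxcl2 and Cxcl3.

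Cxcl5, a chemokine known in mice as LIX and made by epithelial cells among others, rose in DNBS_Nissle. It was read at −1.54, −0.34, −3.29 and −2.25 in DNBS_CEC samples 1, 2, 6 and 8, and at −0.47, −0.49, −0.98 and 0.03 in DNBS_Nissle samples 1, 4, 5 and 7. The DNBS samples 2, 3, 4 and 5 stood at −2.70, 0.75, −3.54 and −1.28, against −4.48, −3.95, −5.04 and −3.69 in healthy samples 3, 4, 5 and 6. All 12 samples of the DNBS-treated groups exceeded all 4 healthy samples, and the DNBS_Nissle samples lay within 1.01 of each other. Cxcl5 rose 14.0-fold in DNBS_Nissle against healthy mucosa, by 3.81 ± 0.77 on the log2 scale (limma adjusted p = 0.0212). It was higher by 2.43 ± 0.77 in DNBS_CEC (0.512) and by 2.59 ± 0.77 in DNBS (0.197), where it did not pass (± SE, n = 4 each). The DNBS difference was 1.78 without DNBS sample 3 and 3.21 without DNBS sample 4. The call in DNBS_Nissle was lost without DNBS_Nissle sample 1 (limma adjusted p = 0.0584), healthy sample 3 (0.0979), healthy sample 4 (0.0517) or healthy sample 5 (0.0641), with differences from 3.56 to 3.92.

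Ppbp, the platelet basic protein that platelets store and release as a chemokine precursor, had the smallest tested differences from healthy mucosa among the chemokines. It was read at −4.98, −8.21, −7.60 and −7.61 in DNBS_CEC samples 1, 2, 6 and 8, and at −5.93, −6.17, −4.69 and −6.52 in DNBS_Nissle samples 1, 4, 5 and 7. The DNBS samples 2, 3, 4 and 5 stood at −6.18, −3.27, −8.03 and −7.08, against −7.39, −8.03, −7.50 and −7.74 in healthy samples 3, 4, 5 and 6. The DNBS_Nissle samples lay above all healthy ones, whereas only DNBS_CEC sample 1 and DNBS samples 2, 3 and 5 did so in their groups. The differences from healthy mucosa were 0.57 ± 0.86 in DNBS_CEC (limma adjusted p = 0.923), 1.84 ± 0.86 in DNBS_Nissle (0.281) and 1.53 ± 0.86 in DNBS (0.579; ± SE, n = 4 each). Without DNBS sample 3 the DNBS difference was 0.57, and without DNBS_CEC sample 1 the DNBS_CEC difference was −0.14. The DNBS_Nissle difference passed when only these 2 groups were fitted (limma adjusted p = 0.0469), and the value of DNBS_Nissle sample 1 was a filled-in mean. Of the 7 platelet markers listed, only Selp, which platelets share with endothelium, was on the panel.

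Il8rb, the receptor for these chemokines, had the largest tested difference from healthy mucosa among the members in DNBS_Nissle and in DNBS. It was read at −6.04, −6.18, −7.44 and −8.09 in DNBS_CEC samples 1, 2, 6 and 8, and at −3.46, −4.24, −4.0 and −4.78 in DNBS_Nissle samples 1, 4, 5 and 7. The DNBS samples 2, 3, 4 and 5 stood at −6.33, −2.22, −7.13 and −5.86, against −8.45, −7.81 and −8.13 in healthy samples 3, 4 and 6, with healthy sample 5 not detected at a Ct of 28.93. All DNBS_Nissle and DNBS samples exceeded the healthy ones, and DNBS_CEC sample 8 lay among them. Il8rb rose 19.6-fold in DNBS_Nissle, by 4.29 ± 0.82 on the log2 scale (limma adjusted p = 0.0212), and had the lowest p of the 473 genes tested there. It was higher by 1.47 ± 0.82 in DNBS_CEC (0.677) and by 3.02 ± 0.82 in DNBS (0.154; ± SE, n = 4 each). In these fits healthy sample 5 stood at the limit, and healthy sample 3 was a filled-in mean. The call was lost without DNBS_Nissle sample 1 (limma adjusted p = 0.0584), healthy sample 3 (0.0979), healthy sample 4 (0.0517) or healthy sample 5 (0.0641), with differences from 4.01 to 4.49. Without DNBS sample 3 the DNBS difference was 1.97.

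Fpr1 was detected in all 16 samples and did not pass the test in any comparison. It was read at −3.29, −4.35, −5.38 and −5.22 in DNBS_CEC samples 1, 2, 6 and 8, and at −2.05, −2.63, −3.11 and −4.92 in DNBS_Nissle samples 1, 4, 5 and 7. The DNBS samples 2, 3, 4 and 5 stood at −3.42, −1.82, −3.62 and −4.68, against −4.69, −4.0, −6.03 and −4.35 in healthy samples 3, 4, 5 and 6. Each DNBS-treated group overlapped the healthy one, through DNBS_Nissle sample 7, DNBS sample 5 and 3 of the 4 DNBS_CEC samples. The differences from healthy mucosa were 0.21 ± 0.70 in DNBS_CEC (limma adjusted p = 0.967), 1.59 ± 0.70 in DNBS_Nissle (0.264) and 1.38 ± 0.70 in DNBS (0.533; ± SE, n = 4 each). In DNBS_CEC the sign turned without DNBS_CEC sample 1 or without healthy sample 5, both at −0.21. In whole mucosa, more cells that carry a transcript and more of it per cell cannot be told apart, for the receptors as for the chemokines.

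The 3 comparisons with healthy mucosa share the healthy samples, so their values stand side by side and are not independent. In DNBS_CEC 0 of the 5 tested members passed in limma, as did 0% of 474 genes, with 1 member (and 33 genes) at an unadjusted p under 0.05. In DNBS_Nissle 2 of 5 passed, against 1.69% of 473 genes, and all 5 had an unadjusted p under 0.05, as did 84 genes. In DNBS 0 of 5 passed, against 0.211% of 473 genes, with 3 members (and 50 genes) at an unadjusted p under 0.05. Of the 5 tested members, 1 in DNBS_CEC, 4 in DNBS_Nissle and 3 in DNBS had every sample above every healthy sample. The same held for 1.27%, 7.19% and 6.34% of all tested genes in these comparisons. The median difference of all 7 members, with undetected wells at the limit, was 1.47, 3.81 and 2.59, beside −0.15, −0.07 and 0.04 over all tested genes.

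**Figure D2:**
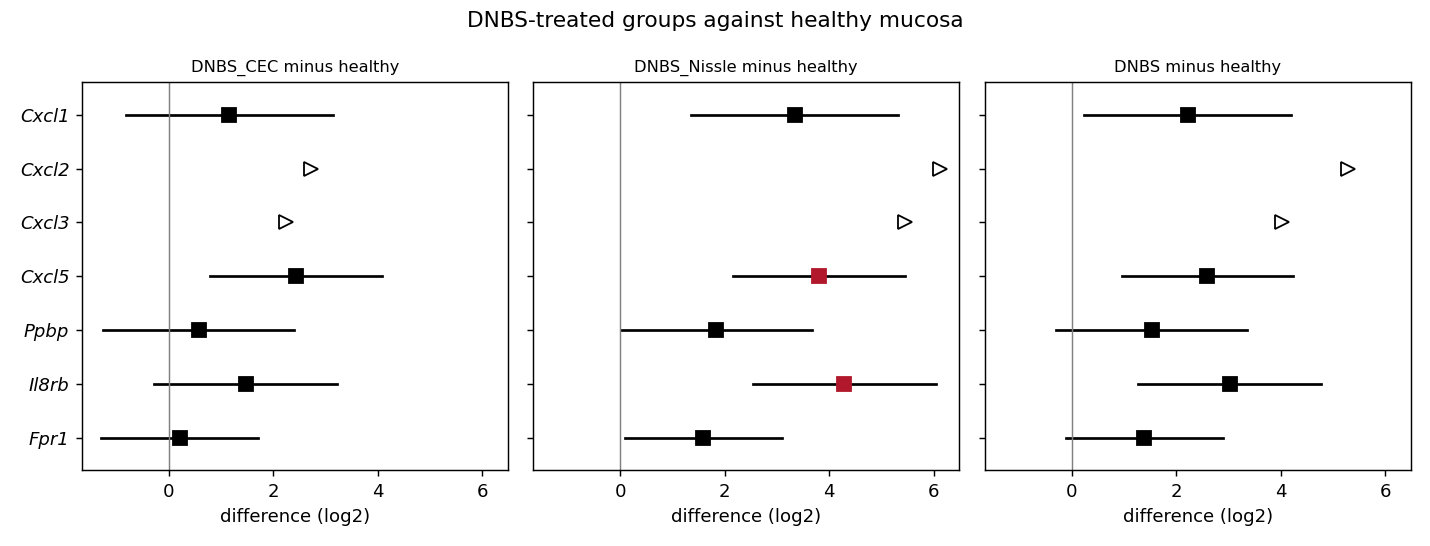
Difference of each gene from healthy mucosa (log2, horizontal axis) in DNBS_CEC, DNBS_Nissle and DNBS, with squares for the fitted value, lines for its 95% confidence interval, red for a limma adjusted p under 0.05 and open arrows for lower bounds of genes not detected in enough healthy samples. Cxcl5 and Il8rb in DNBS_Nissle, at 3.81 and 4.29, are the red squares.

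Oral CEC was set against oral PBS under DNBS to ask whether it altered the inflamed mucosa. All 7 members had a lower mean in DNBS_CEC than in DNBS, but most of the panel did too, with only 26.1% of 490 genes higher. With 13 reference genes, all endogenous controls or Gapdh alone, 204, 182 and 136 of the 490 genes were higher. With the global mean 255 were, so there most of the panel was not lower. In limma 0 of 7 passed, as did 0% of the 490 genes. None of the 7 had an unadjusted p under 0.05, against 17 of all genes. The differences ran from −2.57 ± 1.41 in Cxcl2 to −0.16 ± 0.77 in Cxcl5 (± SE, n = 4 each), with a median of −1.17 beside −0.24 over all genes and limma adjusted p from 0.869 to 0.964. Il8rb differed by −1.55 with a 95% interval from −3.30 to 0.20, and Fpr1 by −1.17 with an interval from −2.68 to 0.33. The groups overlapped in all 7 members, where 2.04% of all genes had every DNBS_CEC sample below every DNBS sample. Without DNBS sample 3, Cxcl1 was at −0.34, Cxcl2 at −1.27, Cxcl3 at −0.51, Ppbp at −0.0049, Il8rb at −0.50 and Fpr1 at −0.65, and Cxcl5 turned to 0.65. Cxcl5 was at 0.32 without DNBS_CEC sample 6. With the global mean in place of the reference genes Cxcl5 was at 0.12.

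Oral Nissle was set against oral PBS under DNBS with the same question. All 7 members had a higher mean in DNBS_Nissle than in DNBS, as did 43.1% of 490 genes. In limma 0 of 7 passed, as did 0% of the 490 genes. None of the 7 had an unadjusted p under 0.05, against 8 of all genes. The differences ran from 0.21 ± 0.70 in Fpr1 to 1.44 ± 1.34 in Cxcl3 (± SE, n = 4 each), with a median of 1.12 beside −0.07 over all genes and a limma adjusted p of 0.980 for each. Cxcl5 differed by 1.21 with a 95% interval from −0.43 to 2.85, and Il8rb by 1.27 with an interval from −0.48 to 3.02. The groups overlapped in all 7 members, where 0.612% of all genes had every DNBS_Nissle sample above every DNBS sample. Without DNBS sample 3, which was the highest of its group in all 7 genes, the differences of Cxcl2, Cxcl3, Cxcl5 and Il8rb were 2.14, 2.71, 2.03 and 2.32. Cxcl2 was at 0.031 without DNBS_Nissle sample 5, Cxcl1 at 0.30 without DNBS_Nissle sample 1, and Cxcl5 and Il8rb at 0.60 and 0.69 without DNBS sample 4. Fpr1 turned to −0.17 without DNBS_Nissle sample 1, and to −0.23 without DNBS sample 5. Ppbp turned below 0 when DNBS sample 4 (−0.32), DNBS_Nissle sample 5 (−0.07) or DNBS sample 5 was left out.

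The oral treatments were set against each other directly. All 7 members had a lower mean in DNBS_CEC than in DNBS_Nissle, under each scaling run. Over the whole panel the direction changed with the reference, with 36.1% of 487 genes higher as reported. With 13 reference genes, all endogenous controls or the global mean, 314, 286 and 285 of the 487 genes were higher. With Gapdh alone 130 were. The median difference was −2.19 over the members and −0.09 over all genes. In limma 0 of 7 passed, as did 0% of the 487 genes. An unadjusted p under 0.05 was reached by 4 members, Cxcl1, Cxcl2, Cxcl3 and Il8rb, and by 25 of all genes. Il8rb differed by −2.82 ± 0.82 (limma adjusted p = 0.453), the highest DNBS_CEC sample being −6.04 and the lowest DNBS_Nissle sample −4.78. It was the 1 member whose groups did not overlap, where 2.05% of all genes had every DNBS_CEC sample below every DNBS_Nissle sample. Cxcl2 differed by −3.40 ± 1.41, Cxcl3 by −3.21 ± 1.34 and Cxcl1 by −2.19 ± 0.93 (limma adjusted p = 0.720, 0.720 and 0.757). Cxcl5, Ppbp and Fpr1 differed by −1.37 ± 0.77, −1.27 ± 0.86 and −1.38 ± 0.70 (± SE, n = 4 each). Leaving out each of the 8 samples in turn kept all 7 differences below 0, with Il8rb between −3.12 and −2.43, Cxcl2 between −4.49 and −2.61 and Cxcl3 between −3.98 and −2.52. Cxcl1 was at −1.38 without DNBS_Nissle sample 1, and Cxcl5 at −0.89 without DNBS_CEC sample 6. Ppbp was at −1.98 without DNBS_CEC sample 1.

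**Figure D3:**
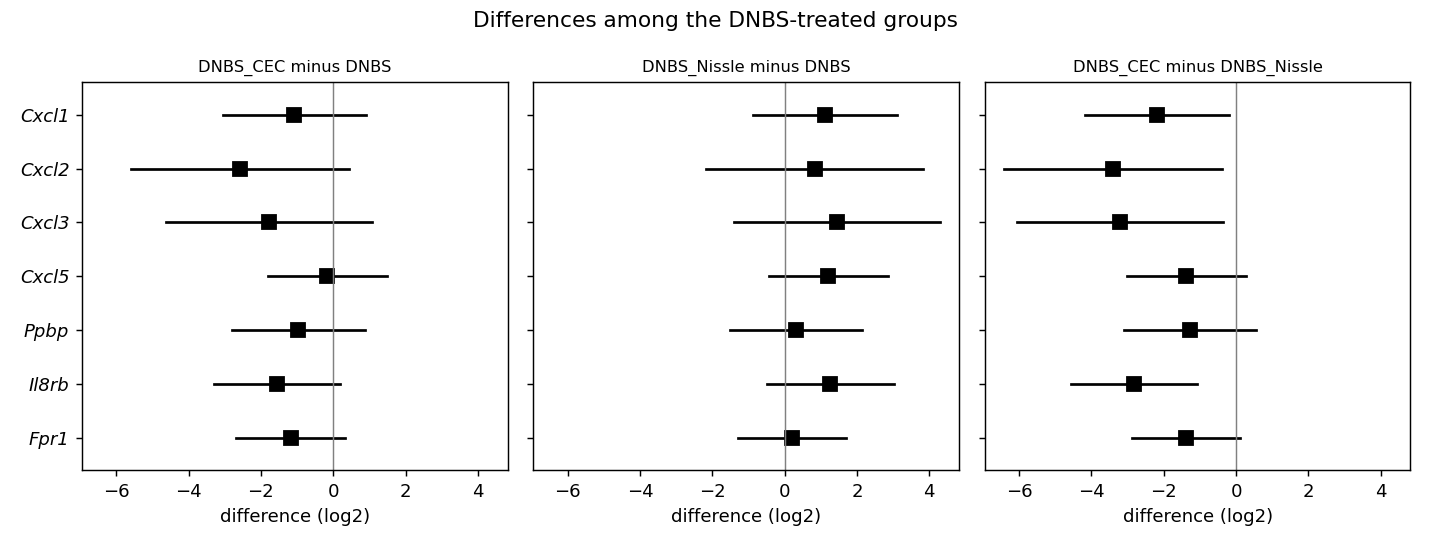
Difference of each gene (log2, horizontal axis) between DNBS_CEC and DNBS, DNBS_Nissle and DNBS, and DNBS_CEC and DNBS_Nissle, with squares for the fitted value and lines for its 95% confidence interval. All DNBS_CEC values lie below 0 and all DNBS_Nissle minus DNBS values above it, and no difference has a limma adjusted p under 0.05.

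In each group most members varied more between samples than the median gene detected in all 16 samples. The genes detected everywhere were not matched to the members for level, and Cxcl2, Cxcl3 and Il8rb were not among them. The SD between samples exceeded the median SD of the 428 genes detected everywhere in 7 of 7 members in DNBS_CEC and in DNBS, in 5 of 7 in DNBS_Nissle and in 6 of 7 in healthy mucosa. It ran from 0.96 to 2.54 over the members in DNBS_CEC, from 0.41 to 2.25 in DNBS_Nissle and from 1.18 to 2.70 in DNBS, beside medians over genes of 0.61, 0.63 and 0.46. In healthy mucosa it ran from 0.28 to 2.01, beside a median of 0.40. DNBS sample 3 had the highest level of all 16 samples in 6 of the 7 genes, all but Cxcl1, in which DNBS_Nissle sample 1 was highest. Within DNBS_CEC, samples 1 and 2 averaged −3.70 and −4.67 over the 7 genes and samples 6 and 8 averaged −6.52 and −6.49, within the healthy range of −7.57 to −6.05.

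**Figure D4:**
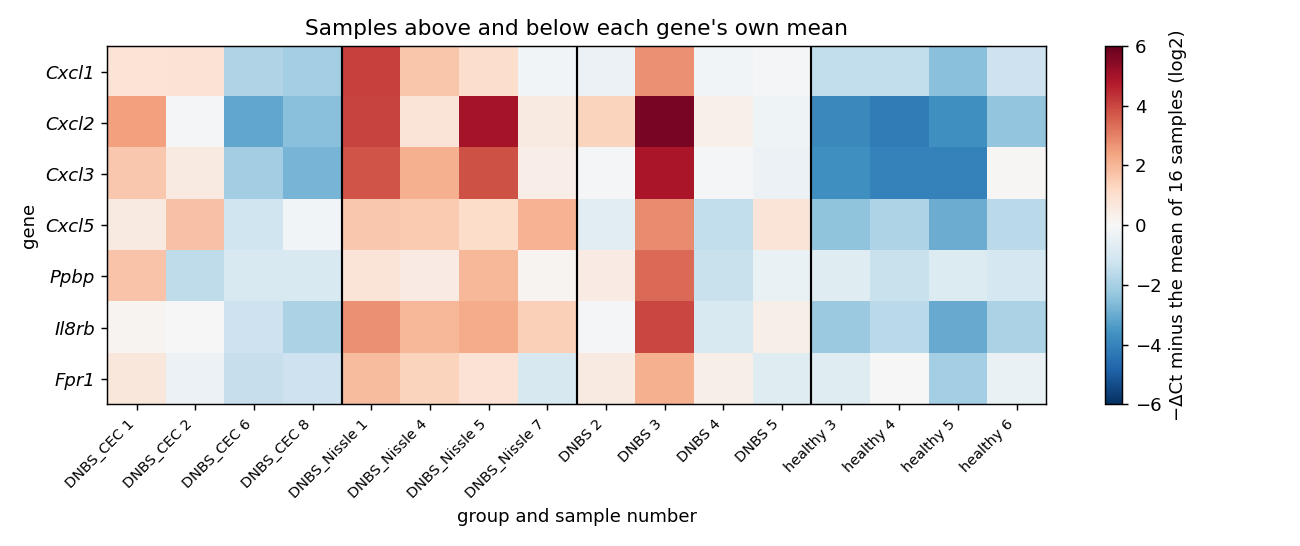
Each gene's −ΔCt minus its own mean over the 16 samples (log2, colour scale), with genes as rows and samples as columns in 4 blocks for DNBS_CEC, DNBS_Nissle, DNBS and healthy. Red is above and blue below the gene's mean, and the DNBS sample 3 column is red in all 7 rows.

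Likeness of pattern was measured as the root mean square (RMS) difference between 2 genes' levels over the 16 samples, after each gene's own mean was subtracted. Among 464 other genes, Selp (0.66), the monocyte chemokine Ccl7 (0.69) and the cytokine Osm (0.90) were most like Cxcl1, whose own RMS deviation was 1.76. Il1b and Il1a were among the 3 genes most like both Cxcl2 (1.13 and 1.37) and Cxcl3 (0.84 and 1.02), with S100a9 (1.34) beside Cxcl2 and Osm (1.10) beside Cxcl3. Cxcl2 and Cxcl3 lay 0.95 apart, against own deviations of 3.06 and 2.72. In healthy samples 3 and 4 neither gene was detected and both were set to the limit, which made them equal there (−8.85 and −9.21). Cxcl5 had Selp (1.0), Osm (1.10) and the activin subunit Inhba (1.22) nearest, and the member nearest to it was Il8rb (0.84). Il8rb had Osm (0.70), Trem1 (0.82), an amplifying receptor of myeloid cells, and Il1b (0.83) nearest. Fpr1 had the leukotriene B4 receptor Ltb4r1 (0.52), the leukocyte receptor Lilrb3 (0.61) and the haem-degrading enzyme Hmox1 (0.66) nearest. Ppbp had Alox5ap (0.68), which serves leukotriene synthesis, Ltb4r1 (0.84) and the integrin subunit Itgb2 (0.88) nearest. These are distances over samples that share groups and reference genes, and no test was made of them.

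Markers of neutrophils differed between the samples in part as the members did. S100a8, a calprotectin subunit, was at 1.0, 1.44, −4.48 and −5.31 in DNBS_CEC samples 1, 2, 6 and 8, and between 0.59 and 1.89 in DNBS_Nissle samples. It stood at −1.67, 4.28, −2.42 and 0.19 in DNBS samples 2, 3, 4 and 5 and between −7.92 and −4.47 in healthy samples. DNBS sample 3, the highest sample in 6 members, was thus highest in S100a8 too, and DNBS_CEC samples 6 and 8 were the lowest of the DNBS-treated samples in it. Ltf, the lactoferrin of neutrophil granules, had another order of group means, at −5.14 ± 2.25 in DNBS_CEC, −4.08 ± 0.62 in DNBS_Nissle, −3.32 ± 1.79 in DNBS and −7.55 ± 0.64 in healthy samples (SD, n = 4 each). DNBS sample 2, at −2.01, was its highest sample, just above DNBS sample 3 at −2.04. Of 9 listed neutrophil markers 5 were on the panel. The log2 of their summed level ranged from −4.20 to 1.88 in DNBS_CEC and from 1.5 to 2.75 in DNBS_Nissle. It ranged from −1.65 to 5.15 in DNBS and from −5.68 to −3.72 in healthy samples. Levels were summed before the log, so in DNBS-treated groups the sum was largely that of S100a8 and S100a9. These averaged 0.10 and −0.37 in DNBS, against −3.32 for Ltf and −7.26 for Camp, the cathelicidin of neutrophil granules. Camp was detected in 1, 4, 3 and 0 samples of DNBS_CEC, DNBS_Nissle, DNBS and healthy mucosa. The 4 monocyte and macrophage markers on the panel summed to between −1.68 and −0.75, −1.54 and 0.17, −1.03 and 0.10, and −1.13 and −0.36 in the same order. For the 5 adipocyte markers on the panel the sums were −1.56 to 0.94, −0.70 to 0.12, 0.45 to 1.64, and −0.10 to 2.45. The part of these cell markers in the members' differences was not tested.

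**Figure D5:**
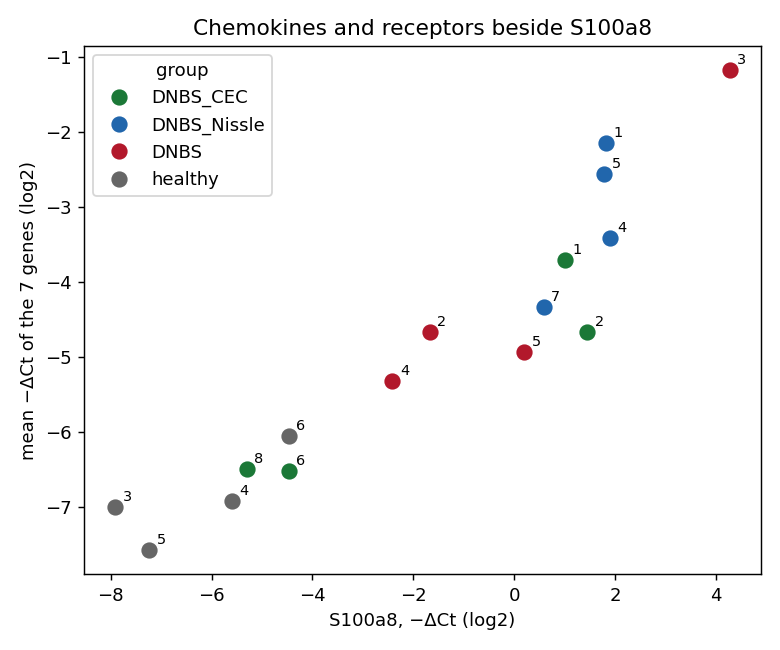
Mean −ΔCt of the 7 genes (vertical axis, log2) beside the −ΔCt of S100a8 (horizontal axis, log2) in each sample, coloured by group and marked with the sample number. DNBS sample 3 lies at the top right, at 4.28 and −1.17, and DNBS_CEC samples 6 and 8 lie beside the healthy samples at the lower left.

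Other genes of neutrophil recruitment were taken from 7 lists, of which 3 held a called gene. The lists were chosen with earlier results of these data known, so calls within them are no independent support. All these calls fell in DNBS_Nissle against healthy mucosa, where 1.69% of 473 tested genes were called. Among 12 listed neutrophil granule and cytosolic markers, 4 could be tested against healthy mucosa, and S100a8 and S100a9 rose in DNBS_Nissle, by 7.83 ± 1.58 and 7.49 ± 1.47 (limma adjusted p = 0.0212 for both; ± SE, n = 4). The list's median difference from healthy was 3.25 in DNBS_CEC, 6.42 in DNBS_Nissle and 5.70 in DNBS, with none called in DNBS_CEC or DNBS. Ltf, the list's lowest p in DNBS, was higher there by 4.23 ± 0.97 (limma adjusted p = 0.123). Of 11 tested inducers of neutrophil chemokines, the cytokine Il1b rose in DNBS_Nissle, by 4.77 ± 1.06 (limma adjusted p = 0.0312). The inducers' medians were 0.19 in DNBS_CEC, 0.42 in DNBS_Nissle and 0.31 in DNBS. Of 4 tested adhesion genes, Selp, the P-selectin on which neutrophils roll, rose in DNBS_Nissle by 3.27 ± 0.78 (limma adjusted p = 0.0443). The calls of S100a8, S100a9, Il1b and Selp were each lost without DNBS_Nissle sample 1 or healthy sample 3, 4 or 5. The call of Il1b was also lost without DNBS_Nissle sample 5, and that of Selp without DNBS_Nissle sample 4 or healthy sample 6. With single samples left out, limma adjusted p ranged up to 0.0979 for S100a8 and S100a9, 0.136 for Il1b and 0.142 for Selp. The integrin subunit Itgam was higher in DNBS by 1.98 ± 0.75 (limma adjusted p = 0.295).

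The remaining lists held no called gene in any of the 6 comparisons. In a list of other chemoattractants with their enzymes and the receptor Ltb4r1, 6 genes were tested and Alox5ap had the lowest p in DNBS, at 1.83 ± 0.67 against healthy (limma adjusted p = 0.295). A list of 6 other chemoattractant receptors had medians of −0.26, −0.09 and 0.31 against healthy in DNBS_CEC, DNBS_Nissle and DNBS, and Ccr1 was at 0.88 ± 0.33 in DNBS (limma adjusted p = 0.295). Csf2rb, the shared receptor chain for Csf2, was at 0.75 ± 0.59 in DNBS (limma adjusted p = 0.794) among 3 tested growth factors and their receptors. The CXC chemokines without the ELR motif and their receptors had medians of −0.13, −0.21 and 0.06 in the same order, and Cxcr3 was at −0.60 ± 0.50 in DNBS (limma adjusted p = 0.807). The sign of the DNBS_CEC and DNBS medians of that list, of the DNBS_Nissle median of the receptors and of the DNBS median of the growth factors (0.08) changed with the choice of reference. Over the 5 scalings the median of all tested genes in DNBS against healthy moved between −0.11 and 0.12, while that of the 7 members stayed between 2.45 and 2.68. In DNBS_CEC minus DNBS the all-gene median moved between −0.24 and 0.04, and the members' median between −1.17 and −0.90. In DNBS_CEC minus DNBS_Nissle these ranges were −0.19 to 0.16 and −2.29 to −1.94.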

How the data were processed

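Colonic mucosa RNA of 16 samples was read by TaqMan OpenArray PCR. The authors deposited raw cycle thresholds (Ct, recorded as another unit), not normalized, per the file headers. The software, threshold and handling of failed wells are not given in the sources used here. Members, lists and the choice of reference genes were made with earlier results of these data known.

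Ct values were turned into −ΔCt against 11 endogenous control genes (17 assays), some not reported here by name. Ywhaz and Rplp2 were left out for their SD within groups of 3.47 and 1.01 cycles, against 0.27 to 0.57 for those kept. B2m and Tfrc were not used either. A gene with several assays was read from the assay or assays with the widest detection, averaged where tied. A gene was tested where Ct was at most 28 in 3 of 4 samples of both groups, with higher values set to 28. All genes were fitted with limma 3.58.1 (lmFit, eBayes) in R 4.3.3, in 1 model over 16 samples, with Benjamini-Hochberg adjustment over the genes of each comparison and a threshold of 0.05. The fit was run on simulated independent normal values with known changes. These held no undetected wells, filled-in means or outlying samples, so the run does not cover those features of the data. Molecule numbers behind a Ct are unknown, so no counting interval was computed. Of 128 member values, 3 were filled in and 9 had at most 4 decimals.

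Alternatives changed the scaling, the detection limit, the low-value filter, the assay choice, suspect values, the samples fitted and the replicate block. Named genes were the members, list genes called in any comparison or with the lowest p of their list in DNBS minus healthy, and the 3 genes of nearest pattern to each member.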

Additional observations from a re-analysis of the deposited data

Results flagged for a closer look

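In groups of 4, a sample was singled out when its gap to the nearest other passed Dixon's 95% critical share of the group's range, which chance alone does in about 1 of 20 groups. Of 28 gene and group pairs, 3 were singled out. DNBS sample 3 stood at −2.02 in Cxcl1, with the other DNBS samples between −5.12 and −4.83, and at −0.29 in Cxcl3, with the others between −5.52 and −5.22. Healthy sample 6 stood at −5.09 in Cxcl3, where the other healthy samples were at the detection limit, between −9.24 and −8.85. Their Ct values were all set to 28, so their spread is that of the reference genes alone. The rate of 1 in 20 does not hold for this group.

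The second Cxcl1 assay, detected in fewer samples and left out of the reported values, was higher in DNBS than in healthy mucosa by 2.97 on the log2 scale. It was detected in 4 of 4 DNBS and 3 of 4 healthy samples. The Ct values of the assays lay within 0.63 cycles of each other except in healthy sample 3, where the reported assay held a filled-in mean and the difference, reported minus second assay, was −2.88 cycles.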

How the results depend on the processing

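The 42 differences of the members were recomputed under 16 other settings and with each sample left out, giving 960 values, of which 16 changed sign. Many of these values could not change. Dropping the filter or fitting only the compared groups leaves the group means as they were, and other settings touch only some genes. The 16 sign changes are therefore no measure of how firm the signs are. Cxcl5 in DNBS_CEC minus DNBS turned to 0.12 with the global mean, 0.65 without values of 4 or fewer decimals, 0.25 with the replicate block and 0.65 without DNBS sample 3 and DNBS_Nissle sample 1 (chosen after seeing the data). Fpr1 in DNBS_Nissle minus DNBS turned to −0.17 without healthy sample 3 and DNBS_Nissle sample 1 (also chosen after seeing the data). With undetected values left out, only healthy sample 6 stands for the healthy group in Cxcl3. The values are then differences from that sample and no longer bounds. In DNBS_CEC the value turned to −0.76, and in DNBS and DNBS_Nissle it came to 1.01 and 2.45. With single samples left out, the range was −0.78 to 0.65 for Cxcl5 in DNBS_CEC minus DNBS, −0.32 to 1.27 for Ppbp and −0.23 to 0.79 for Fpr1 in DNBS_Nissle minus DNBS, and −0.14 to 0.94 for Ppbp and −0.21 to 0.48 for Fpr1 in DNBS_CEC minus healthy.

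Counts of called genes in DNBS_Nissle minus healthy, 8 as reported, were 5 with a limit of Ct 26, 14 without the filter, 17 with only these groups fitted, 0 with the replicate block, 0 without healthy sample 3 and DNBS_Nissle sample 1, and 0 to 11 with single samples left out. In DNBS minus healthy, 1 as reported, they were 0 with Gapdh alone, the global mean, no filter, the replicate block or either pair of samples left out, 2 with only these groups fitted, and 0 to 2 with single samples left out. In DNBS_CEC minus DNBS_Nissle they were 1 instead of 0 with a limit of Ct 30 or without the filter. The other 3 counts stayed at 0 in every setting run. Cxcl5 and Il8rb in DNBS_Nissle minus healthy kept their call under the other scalings, at a limit of Ct 30, without the filter, with filled-in, undetected or few-decimal values left out, with the best assay only and with only these groups fitted. At a limit of Ct 26 Cxcl5 kept it and Il8rb was not tested. Both lost it with the replicate block (limma adjusted p = 0.278 and 0.231) and without healthy sample 3 and DNBS_Nissle sample 1 (0.214 for both). Of 10 same-numbered pairs of samples, 4 correlated above 0.1 over 428 genes, with values from −0.50 to 0.34. Pairs with unlike numbers were not computed, so it is not known whether replicate numbers pair the samples. The causes of these changes were not tested.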
